A study of Mus musculus with 72 samples.

Results

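The genes encoding the ligands of the EGFR family (Egf, Tgfa, Areg, Ereg, Hbegf, Btc, Epgn and Nrg1) were followed through 6 tissues of mice given 1 of 3 DNA circuits. They were taken as a list of 8 symbols, and all 8 were found among the 36047 mouse genes that every tissue table holds. All mice carried the EGFR DEL19 transgene, a human EGFR with an exon 19 deletion that signals without ligand, and had received doxycycline for 25 days before the circuits. The circuits were injected into a vein at 10 mg/kg every 2 days, 7 times in all, and tissues were taken on day 14. CMV-GE11-siRE makes an siRNA against EGFR in vesicles that display GE11, a peptide that binds EGFR, CMV-siRE makes the same siRNA without the peptide, and CMV-scrR makes a scrambled RNA and was the control. RNA of 6 tissues was sequenced in 4 libraries per circuit and tissue, 72 in all: thymus, spleen, kidney, liver, lung and lung tumour. Which promoter and cell type drive the transgene was not stated in the labels, and mice without it were not analysed here, so all 3 groups share the transgene, the doxycycline and a CMV circuit.

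These ligands are made as membrane-spanning precursors, and a cut outside the cell releases the soluble factor. ADAM17 is the main enzyme for Tgfa, Areg, Ereg, Hbegf and Epgn precursors, and ADAM10 for those of Egf and Btc. Egf, Tgfa, Areg and Epgn act through EGFR, while Hbegf, Btc and Ereg also bind ERBB4. Nrg1 binds ERBB3 and ERBB4, and ERBB2 binds no ligand itself but is the preferred partner of the other receptors. In lung, Areg and Hbegf take part in epithelial repair, and the genes for Areg, Ereg and Hbegf are themselves switched on by signalling from EGFR through ERK. In kidney, Egf is made by the distal convoluted tubule and secreted into urine.

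The values are the authors' normalized signal, taken here as scaled by a size factor set within each tissue. Levels set side by side across tissues are the same values rescaled to one column total in every library (CPM). Column totals, in units of 1000000, ran between 5.87 and 43.8 in tumour and between 16.9 and 21.4 in the other tissues. Genes of the mitochondrial genome took 8.04% to 37.9% of the total in CMV-GE11-siRE tumours, 45.0% to 73.1% in CMV-siRE tumours and 63.1% to 71.4% in CMV-scrR tumours, against 0.558% to 12.7% in the other tissues. The human EGFR transcript, the target of the siRNA, had 91.2, 79.8, 39.2 and 132 in CMV-GE11-siRE tumours, 890, 452, 718 and 1324 in CMV-siRE tumours and 2767, 1992, 4025 and 3215 in CMV-scrR tumours, with no overlap between circuits. Summed over the list, alveolar type 2 markers were present in all tumour libraries, and none of the 6 was at 0 in all 4 libraries of a circuit. Kidney and thymus library 4 of CMV-GE11-siRE stood apart from the rest of their tissue in mitochondrial share (3.69% against 9.6% to 12.7% in kidney, and 0.558% against 1.64% to 1.92% in thymus). The labels leave unstated whether a group's 4 libraries are 4 animals, so a p-value covers only the spread among these libraries, which may be technical. In bulk tissue, fewer cells of a type and less RNA per cell cannot be told apart.

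The leading ligand differed between most tissues. Per kb of exon, Egf made up 96.7% ± 1.83 of the summed ligand value in kidney, Tgfa 66.7% ± 4.09 in liver, Hbegf 54.9% ± 6.15 in lung and 43.2% ± 6.28 in spleen, and Areg 61.3% ± 18.1 in tumour (SD, n = 12 libraries of all circuits). Thymus had no ligand in the majority, with Tgfa at 22.3% ± 7.27, Egf at 18.3% ± 3.78, Hbegf at 16.5% ± 4.41 and Nrg1 at 15.9% ± 3.45. The second place also differed. Tgfa and Areg followed Hbegf in lung with 18.04% and 17.7%, and Btc followed Tgfa in liver with 13.7%. In tumour, Ereg (15.1% ± 7.69) and Hbegf (14.2% ± 12.7) followed Areg close together. Their order was reversed in the CMV-scrR tumours, where Hbegf averaged 24.1%, with up to 53.3% in a library, and Ereg 13.1%. The share of a ligand within a library does not depend on how the libraries were scaled.

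**Figure D1:**
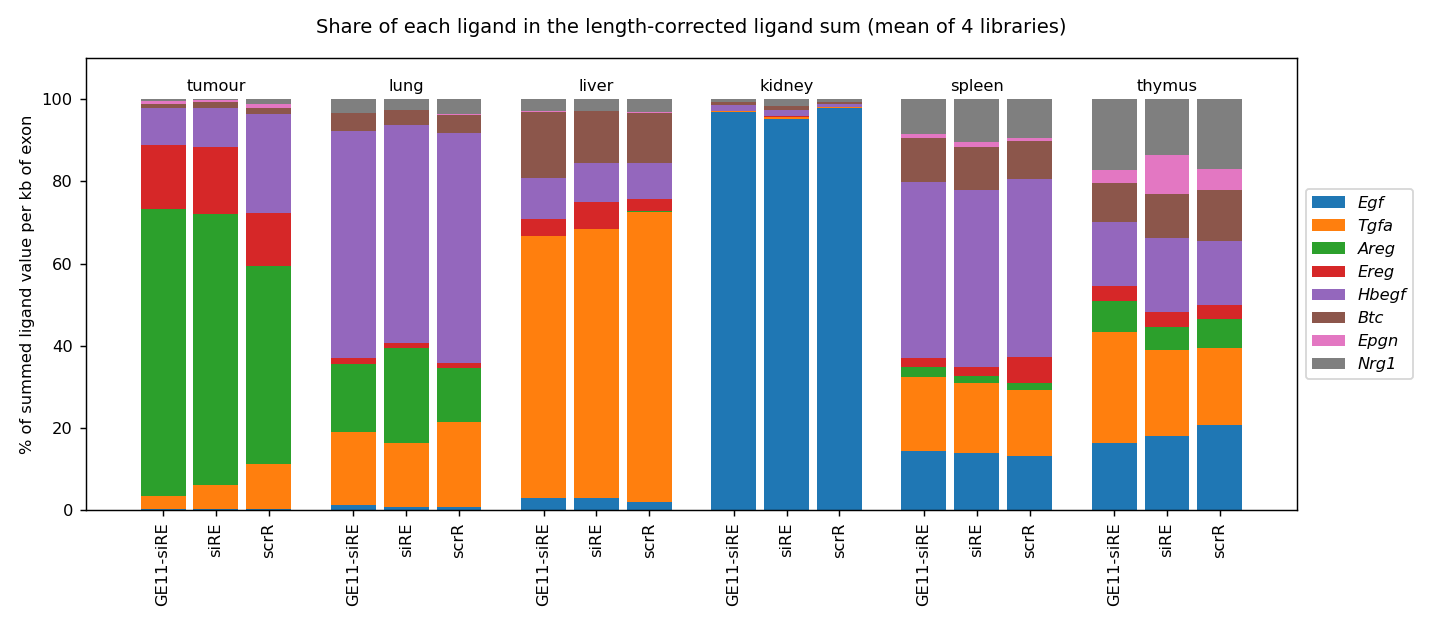
Share of each ligand in the summed ligand value per kb of exon, as the mean of 4 libraries for each tissue and circuit. Egf fills the kidney bars, Tgfa leads in liver, Hbegf in lung and spleen, and Areg in tumour, where its mean share was 69.8% with CMV-GE11-siRE, 66.0% with CMV-siRE and 48.0% with CMV-scrR.

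Summed over the 8 genes, ligand transcript per kb was highest in kidney and in the CMV-GE11-siRE tumours. The sum lay between 148 and 259 CPM per kb in CMV-GE11-siRE kidneys, between 121 and 235 in CMV-siRE kidneys and between 239.7 and 271 in CMV-scrR kidneys. It lay between 80.9 and 170.1 CPM per kb in CMV-GE11-siRE tumours, between 5.54 and 46.8 in CMV-siRE tumours and between 2.24 and 7.65 in CMV-scrR tumours. Over all circuits it was 17.6 to 29.1 in lung, 3.996 to 5.98 in liver, 1.38 to 2.35 in spleen and 1.08 to 2.22 in thymus. The CMV-GE11-siRE tumour sums lay above all others in tumour, while those of CMV-siRE and CMV-scrR overlapped. The mitochondrial share enters the total behind CPM and was itself lowest in the CMV-GE11-siRE tumours, and its part in these sums was not tested. The same limit holds for every tumour CPM by circuit given below and for the place of tumour among the tissues.

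Egf, the founding ligand of the family (ENSMUSG00000028017.7, chr3:129677565-129755316, minus strand, in the GENCODE M21 annotation of GRCm38), was a kidney transcript. It averaged 2295 ± 595 CPM in kidney and lay between 1252 and 2989 CPM there, against tissue means of 0.815 to 3.38 CPM in the other 5 tissues (SD, n = 12). Below kidney its order over all circuits was thymus, spleen, lung, liver and tumour, and each of these neighbours overlapped the next in range. The last place of tumour came from 2 circuits, since Egf averaged 2.21 ± 0.928 CPM in CMV-GE11-siRE tumours, above CMV-GE11-siRE livers (1.46 ± 0.600), against 0.169 ± 0.1995 in CMV-siRE tumours and 0.0607 ± 0.0836 in CMV-scrR tumours (SD, n = 4 each). The part of the mitochondrial share in these tumour CPM was not tested. Over the 18 means of a tissue and circuit, the gene whose log2(CPM + 1) followed Egf most closely was Slc12a3, the salt transporter of the distal convoluted tubule, with Pearson's r of 0.998. Cubn, an uptake receptor of the proximal tubule, and Tmem52b came next, both at 0.996. All 3 genes had their highest mean in CMV-scrR kidneys, and the 18 means share libraries and tissue makeup.

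Tgfa (ENSMUSG00000029999.14, chr6:86195223-86275719, plus strand), which binds EGFR like Egf, was highest in lung at 24.7 ± 3.13 CPM and in liver at 21.1 ± 3.86, and these ranges overlapped. Over all circuits, next in order came tumour (11.5 ± 9.39), kidney (5.004 ± 1.08), thymus (2.25 ± 0.658) and spleen (2.09 ± 0.581), with every neighbour overlapping. The place of tumour differed by circuit, with 23.1 ± 4.84 CPM in CMV-GE11-siRE tumours, 8.27 ± 3.65 in CMV-siRE tumours and 3.13 ± 0.640 in CMV-scrR tumours, where the mean was below that of CMV-scrR kidneys (4.5992 ± 0.654). Hbegf (ENSMUSG00000024486.6, chr18:36504927-36515805, minus strand), the heparin-binding ligand, was highest in lung at 56.0 ± 4.85 CPM, followed over all circuits by tumour (21.5 ± 20.2), kidney (10.3 ± 2.83), spleen (3.93 ± 0.754), liver (2.18 ± 0.409) and thymus (1.24 ± 0.326). Lung overlapped tumour and tumour overlapped kidney. Hbegf averaged 47.1 ± 10.4 CPM in CMV-GE11-siRE tumours, 12.1 ± 6.62 in CMV-siRE tumours and 5.32 ± 0.501 in CMV-scrR tumours. All CMV-scrR tumours lay below all CMV-scrR kidneys (7.71 ± 1.47), so the second place of tumour did not hold in the control circuit. Its kidney range stood above spleen and its spleen range above liver without overlap. Lung held Hbegf steadily, with 51.8 to 58.9 CPM in CMV-GE11-siRE lungs, 47.7 to 64.4 in CMV-siRE lungs and 51.8 to 58.8 in CMV-scrR lungs. The gene most like Hbegf over the 18 means was Cd9 (r of 0.983), which encodes a tetraspanin known to bind the Hbegf precursor, followed by Ccdc9b (0.977) and Ift43 (0.975). For Tgfa these were Lurap1l (0.982), Plk5 (0.980) and Cmtm8 (0.980).

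Nrg1 (ENSMUSG00000062991.7, chr8:31814551-32884029, minus strand), the neuregulin that acts through ERBB3 and ERBB4, was highest in kidney at 17.6 ± 7.86 CPM, with 6.77 ± 1.70 in lung and 1.18 to 2.57 on average in the other 4 tissues. Lung stood above thymus without overlap, and kidney and lung overlapped. Btc was also highest in kidney, at 7.19 ± 2.18 CPM, followed by lung (3.97 ± 0.617), liver (2.99 ± 0.709), tumour (2.4997 ± 2.73), spleen (0.895 ± 0.592) and thymus (0.814 ± 0.402), with every neighbour overlapping. By circuit, Btc in tumour averaged 5.79 CPM with CMV-GE11-siRE, 1.37 with CMV-siRE and 0.344 with CMV-scrR, the lowest tissue mean of the control. Areg, Ereg and Epgn had their highest mean in tumour over all circuits. Areg averaged 42.6 ± 45.9 CPM in tumour and 4.92 ± 3.34 in lung, and these ranges overlapped. Most of that lead lay in the siRNA circuits, with 96.5 ± 34.6 CPM in CMV-GE11-siRE tumours, 27.3 ± 18.7 in CMV-siRE tumours and 4.10 ± 2.49 in CMV-scrR tumours, against 3.35 ± 1.58 in CMV-scrR lungs, whose range overlapped that of the CMV-scrR tumours. Lung stood above thymus, spleen, kidney and liver without overlap, and in liver Areg was listed at 0 in 11 of 12 libraries. Ereg averaged 31.8 ± 38.5 CPM in tumour, 1.06 ± 0.286 in lung and 0.903 ± 0.380 in liver, and all its neighbours overlapped. Its tumour mean was the highest of the 6 tissues in each circuit, with 76.2 ± 36.8 CPM for CMV-GE11-siRE, 15.2 ± 7.24 for CMV-siRE and 4.02 ± 2.95 for CMV-scrR. Epgn was low throughout, with 0.682 ± 0.796 CPM in tumour and 0.00954 to 0.180 on average elsewhere. In the control its tumour mean (0.141 ± 0.164) was no higher than its thymus mean (0.142 ± 0.142), against 1.53 ± 0.722 in CMV-GE11-siRE tumours and 0.371 ± 0.537 in CMV-siRE tumours. For all these genes, the part of the mitochondrial share in the tumour CPM by circuit was not tested.

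The 3 genes most like each of these over the 18 means were Anks6, Rcan1 and Smtn for Nrg1 (r of 0.970, 0.969 and 0.964), Frk, Bcar1 and Rnf186 for Btc (0.978, 0.960 and 0.959) and Rab3c, Mlana and Mucl3 for Areg (0.980, 0.975 and 0.969). For Ereg they were Fam83a, Alkal1 and Ccdc83 (0.983, 0.980 and 0.977), and for Epgn Fam19a4, Prss22 and Lipo2 (0.971, 0.968 and 0.945). All genes listed for Areg, Ereg and Epgn had their highest mean in CMV-GE11-siRE tumours, so this group weighs in each of these correlations. Mlana, Mucl3, Prss22 and Lipo2 reached only 2.16 to 2.69 CPM there. The correlations describe 16232 genes over means that share libraries and a tissue makeup, and carry no test.

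**Figure D2:**
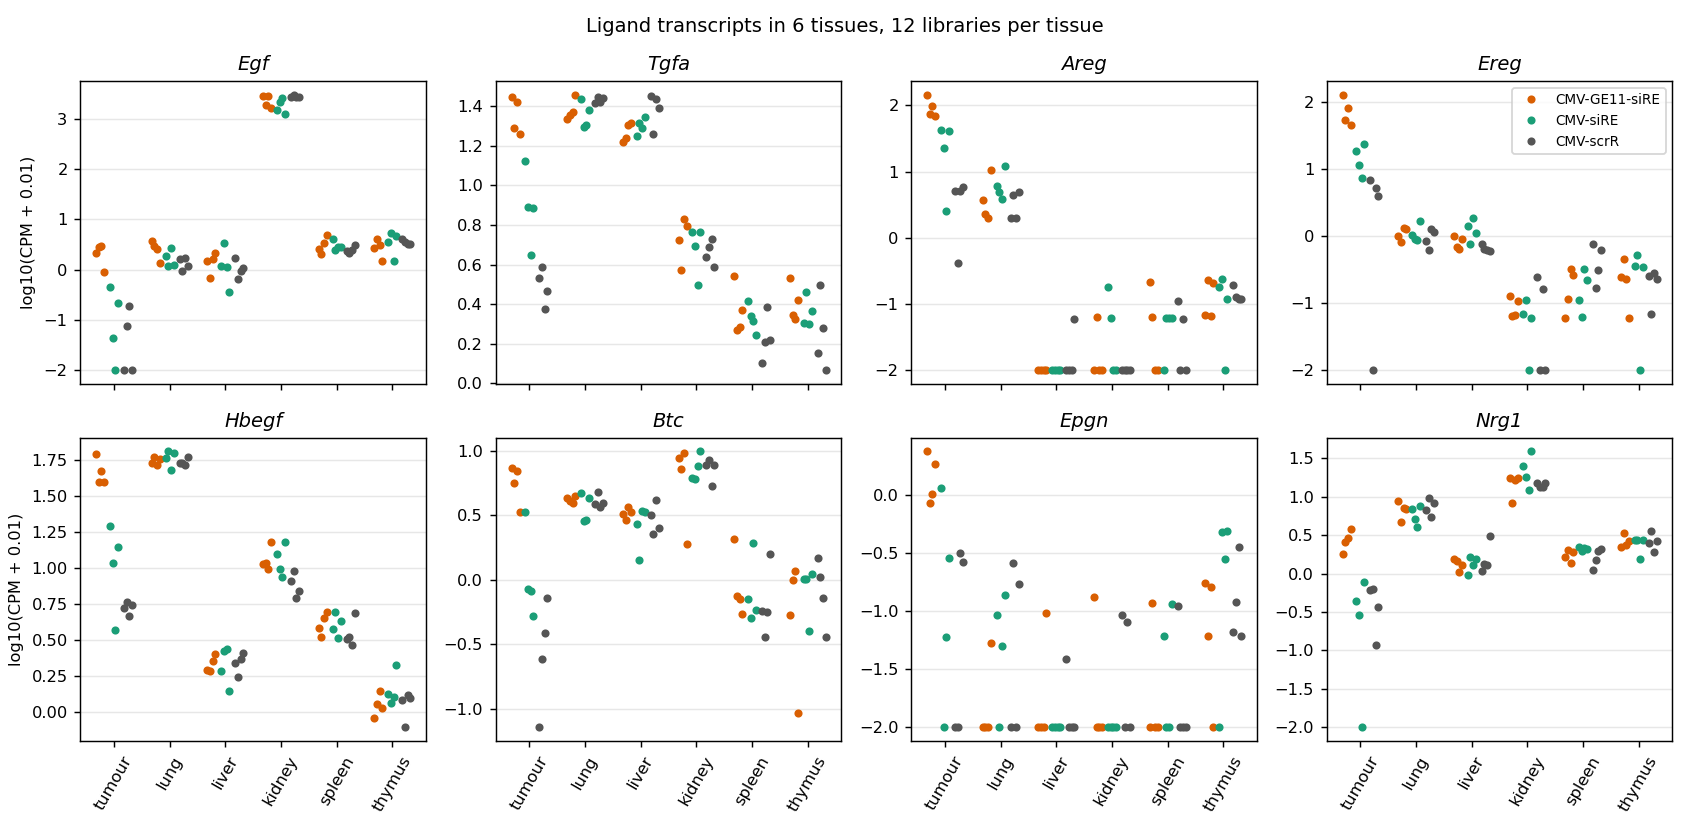
Each ligand in each library, as log10(CPM + 0.01), by tissue, with CMV-GE11-siRE, CMV-siRE and CMV-scrR from left to right within a tissue and 4 points per circuit. Points at the floor are libraries in which the gene is listed at 0. Egf lies between 1252 and 2989 CPM in kidney only, and Areg and Ereg lie highest in the CMV-GE11-siRE tumours. The mitochondrial share enters the total behind CPM and was lowest in those tumours.

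Of the 8 genes, 4 lie side by side on chromosome 5 in 375.5 kb, in the order Epgn (ENSMUSG00000035020.11, chr5:91027464-91035215, plus strand), Ereg (ENSMUSG00000029377.5, chr5:91074622-91093646, plus strand), Areg (ENSMUSG00000029378.5, chr5:91139599-91148432, plus strand) and Btc (ENSMUSG00000082361.6, chr5:91357261-91402994, minus strand). Epgn ends 39.4 kb before Ereg, Ereg ends 46.0 kb before Areg, and 208.8 kb separate Areg from Btc. The promoter windows below, 250 bases before to 50 bases after the start site, are those of ligands that passed the test in tumour and that the RefSeq promoter table (GRCm38.p6) holds, written 5′ to 3′ on the gene's strand. Capitals mark the motifs searched on both strands, the cAMP response element TGACGTCA and its shorter core TGACG, the AP-1 site TGANTCA, the GC box GGGCGG and the TATA box TATAAA. The windows are chr5:91139349-91139648 (plus strand) for Areg, chr5:91402945-91403244 (minus strand) for Btc and chr6:86194972-86195271 (plus strand) for Tgfa.
Areg: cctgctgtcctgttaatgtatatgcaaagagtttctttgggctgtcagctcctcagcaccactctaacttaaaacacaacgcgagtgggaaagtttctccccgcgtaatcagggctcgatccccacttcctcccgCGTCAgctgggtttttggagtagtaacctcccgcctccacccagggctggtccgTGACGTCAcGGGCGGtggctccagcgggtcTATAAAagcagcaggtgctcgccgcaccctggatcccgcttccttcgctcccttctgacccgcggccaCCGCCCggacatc
Btc: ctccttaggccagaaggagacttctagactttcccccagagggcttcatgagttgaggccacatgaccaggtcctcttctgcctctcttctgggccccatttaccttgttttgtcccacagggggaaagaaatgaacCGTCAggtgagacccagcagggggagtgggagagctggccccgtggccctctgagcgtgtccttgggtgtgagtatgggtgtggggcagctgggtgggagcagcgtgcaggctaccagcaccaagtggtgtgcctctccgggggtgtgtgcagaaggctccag
Tgfa: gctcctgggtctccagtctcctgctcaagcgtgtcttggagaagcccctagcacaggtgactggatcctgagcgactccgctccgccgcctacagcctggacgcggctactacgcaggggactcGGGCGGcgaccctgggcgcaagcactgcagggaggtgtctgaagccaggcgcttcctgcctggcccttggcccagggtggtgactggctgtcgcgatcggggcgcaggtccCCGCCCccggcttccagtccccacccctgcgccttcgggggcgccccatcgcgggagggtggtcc

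The Areg window holds a full cAMP response element beginning 61 bases before the start site, which holds the shorter core on each strand, a GC box beginning 52 bases before it and a TATA box beginning 31 bases before it. A further core lies 115 bases before the start and a further GC box 37 bases after it. The full element was present in 1.79% of 32851 promoter windows of the same length, the shorter core in 20.8%, the AP-1 site in 7.81%, the GC box in 35.7% and the TATA box in 13.6%. The Btc window holds 1 such core, 113 bases before the start, and the Tgfa window 2 GC boxes. These matches are a description of letters in a window.

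In tumour, 5 ligands were higher with CMV-GE11-siRE than with CMV-scrR. They were Ereg, Areg, Btc, Hbegf and Tgfa, with log2 differences between 0.78 and 3.35 by limma on log2(signal + 1) and adjusted p under 0.05 over 14044 genes. Of the 8 ligands, 7 passed the filter on low values (at least 10 in at least 4 of 12 libraries), Epgn and Nrg1 did not pass the test, and Egf was not tested. In the same comparison 41.9% of all genes tested were called, 22.1% in the upward direction (3107 higher and 2783 lower), and 50.5% were at an unadjusted p under 0.05. How many of all genes separated these circuits without overlap was not counted, so the separations given below only describe the ligands' values. The median difference of the 7 ligands was 1.68, the value of Epgn, which was not called, and that of all genes was 0.05. The median of the 7 was 1.10 without CMV-scrR library 1 or without CMV-scrR library 2, and 2.23 without CMV-scrR library 4. The 5 ligands that rose include ones for EGFR alone and ones that also bind ERBB4.

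Areg, a low-affinity EGFR ligand of epithelia, had 849, 700.2, 629 and 459 in CMV-GE11-siRE tumours, 516, 436, 112 and 835 in CMV-siRE tumours and 136, 8.63, 192 and 214 in CMV-scrR tumours. All CMV-GE11-siRE tumours lay above all CMV-scrR tumours, and the CMV-siRE tumours spread over both. The log2 difference of CMV-GE11-siRE over CMV-scrR was 2.91 ± 0.83 (SE, n = 4 each, adjusted p = 0.0134 by limma). Without CMV-scrR library 2 it was 1.85 and still called. Its share of the ligand sum per kb lay between 69.3% and 70.4% under CMV-GE11-siRE, against 37.9% to 76.9% under CMV-siRE and 15.0% to 62.3% under CMV-scrR.

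Ereg, its neighbour on chromosome 5 and a ligand of EGFR and ERBB4, had 741, 509, 515 and 294 in CMV-GE11-siRE tumours, 224, 219, 322 and 479 in CMV-siRE tumours and 187, 0, 195 and 145 in CMV-scrR tumours. Both circuits with the siRNA lay above every CMV-scrR tumour. With CMV-GE11-siRE the difference to the control was 3.35 ± 1.26 (adjusted p = 0.046 by limma). Without CMV-scrR library 2 it was 1.49 and still called. The call itself was lost when any 1 of the CMV-GE11-siRE libraries was left out, with adjusted p between 0.0618 and 0.0976.

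CMV-scrR library 2 was low in both genes at once. Among the 8146 genes with at least 50 in each of the other 11 tumour libraries, Ereg was the single one listed at 0 there. In that library Hbegf had 122 and Tgfa 81.5, each the lowest of the 12 tumour libraries, and human EGFR 1992, the lowest of the CMV-scrR tumours.

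Hbegf had 362, 377, 300.4 and 264 in CMV-GE11-siRE tumours, 239, 206, 164 and 285 in CMV-siRE tumours and 143, 122, 171 and 206 in CMV-scrR tumours. The CMV-GE11-siRE tumours lay above all CMV-scrR tumours by 1.03 ± 0.24 on the log2 scale (limma adjusted p = 0.00425), and the CMV-siRE tumours lay between with overlap on both sides. Tgfa had 164, 186, 169 and 121 in CMV-GE11-siRE tumours, 162, 147, 195 and 155 in CMV-siRE tumours and 91.7, 81.5, 87.6 and 108 in CMV-scrR tumours. Both siRNA circuits lay above every CMV-scrR tumour and overlapped each other. The difference was 0.78 ± 0.22 with CMV-GE11-siRE (limma adjusted p = 0.0117), while the 0.83 ± 0.22 with CMV-siRE did not pass the test (adjusted p = 0.0746). For Tgfa and Hbegf every CMV-GE11-siRE library was above every CMV-scrR library, and their calls held whichever of the CMV-GE11-siRE or CMV-scrR libraries was left out.

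Btc, a ligand of EGFR and ERBB4, had 42.9, 53.0, 44.1 and 22.2 in CMV-GE11-siRE tumours, 40.5, 15.9, 35.2 and 10.3 in CMV-siRE tumours and 1.67, 4.92, 14.0 and 26.0 in CMV-scrR tumours. The groups overlapped, since the lowest CMV-GE11-siRE value was below the highest CMV-scrR value. The difference was 2.15 ± 0.69 (limma adjusted p = 0.0227), and the call was lost without CMV-GE11-siRE library 1, 2 or 3 or CMV-scrR library 1 or 2, with adjusted p between 0.0546 and 0.0618. Nrg1 had 10.6, 24.3, 18.3 and 25.4 in CMV-GE11-siRE tumours, 5.26, 5.21, 0 and 15.4 in CMV-siRE tumours and 15.9, 12.9, 3.97 and 12.97 in CMV-scrR tumours, and did not pass in any comparison. Its groups overlapped in all 3, and its difference of 0.80 to CMV-scrR with CMV-GE11-siRE was 0.40 without CMV-scrR library 3. Epgn had 14.0, 8.12, 6.52 and 12.4 in CMV-GE11-siRE tumours, 14.1, 0, 2.21 and 5.63 in CMV-siRE tumours and 0, 0, 11.4 and 9.56 in CMV-scrR tumours. The difference of 1.68 ± 1.06 to CMV-scrR did not pass (limma adjusted p = 0.215), and it was 1.10 without CMV-scrR library 1 or 2. Egf had 12.8, 26.4, 18.9 and 6.07 in CMV-GE11-siRE tumours, 5.32, 0.638, 0 and 4.16 in CMV-siRE tumours and 0, 1.39, 6.57 and 0 in CMV-scrR tumours, too low for the test.

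**Figure D3:**
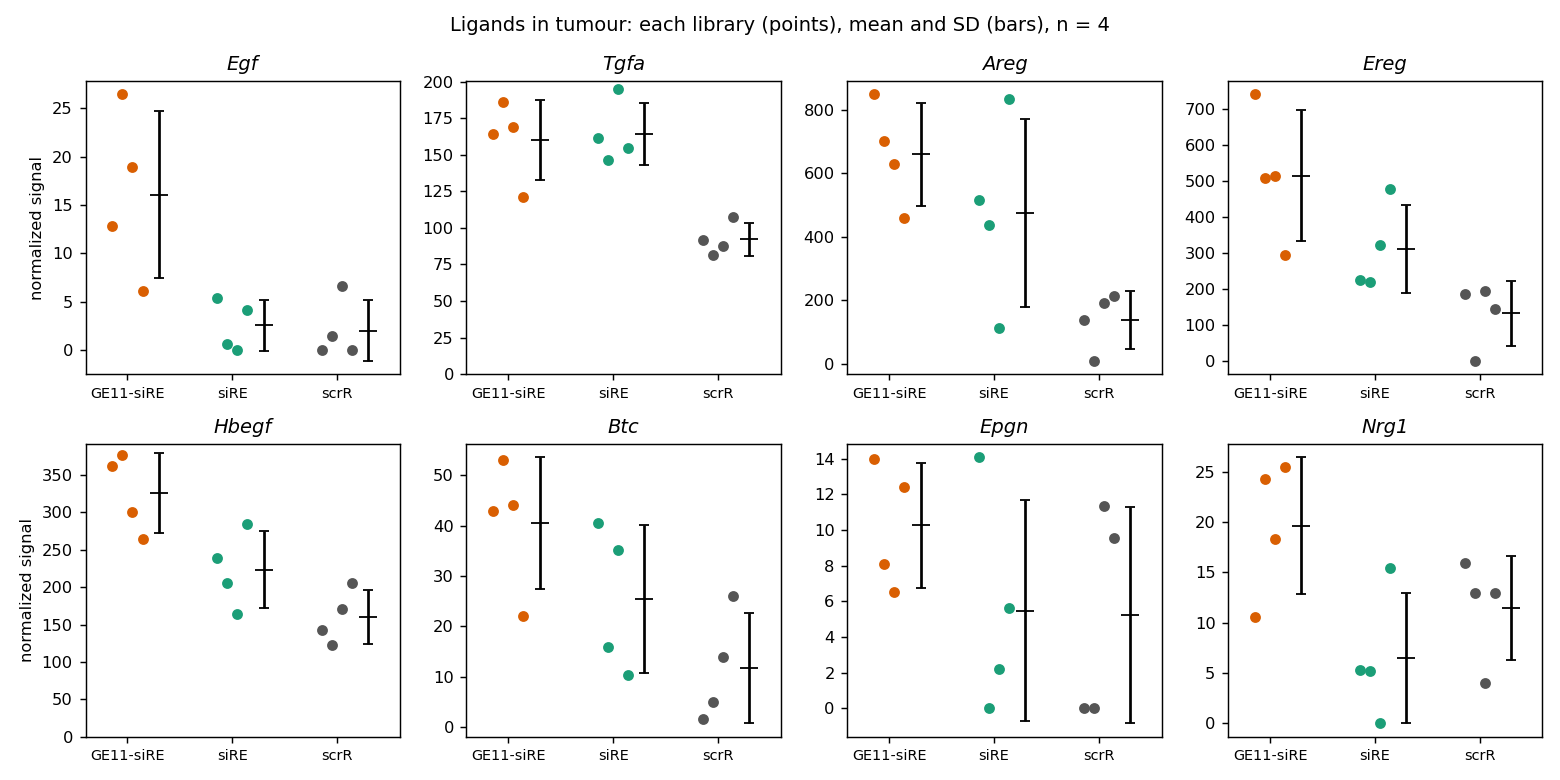
Normalized signal of each ligand in each tumour library, with the mean and SD of 4 libraries per circuit beside the points and a separate axis for each gene. Areg, Ereg, Hbegf and Tgfa lie higher in all 4 CMV-GE11-siRE tumours than in any CMV-scrR tumour, and CMV-scrR library 2 is at 8.63 for Areg and at 0 for Ereg. The share of all genes that separate in this way was not counted, and 41.9% of all genes were called in this comparison.

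CMV-siRE against CMV-scrR, which shares the control tumours, called no ligand of 7 in tumour by limma, with 0.256% of all genes called. At an unadjusted p under 0.05 there were 2 ligands of 7, Areg and Tgfa, beside 21.4% of all genes. The log2 differences were 2.62 ± 1.26 for Ereg, 2.15 ± 0.83 for Areg, 1.37 ± 0.69 for Btc, 0.83 for Tgfa, 0.47 ± 0.24 for Hbegf, 0.32 ± 1.06 for Epgn and -1.17 ± 0.78 for Nrg1. Without CMV-scrR library 2 the value was 0.76 for Ereg and 1.10 for Areg. Without CMV-scrR library 1 it was 0.79 for Btc, and for Epgn it was -0.26, the other direction. Nrg1 lay between -1.74 and -0.40 with each library left out, and was nearest to 0 without CMV-siRE library 3. CMV-GE11-siRE against CMV-siRE also called none of 7, with 0.0214% of all genes called, and 2 ligands, Nrg1 and Hbegf, were at an unadjusted p under 0.05 beside 26.2% of all genes. There the differences were 1.97 ± 0.78 for Nrg1 (limma adjusted p = 0.136), 1.36 ± 1.06 for Epgn, 0.78 ± 0.69 for Btc, 0.75 ± 0.83 for Areg, 0.73 ± 1.26 for Ereg, 0.56 ± 0.24 for Hbegf (adjusted p = 0.156) and -0.05 ± 0.22 for Tgfa. With each library left out, Areg lay between 0.17 and 1.13, Btc between 0.43 and 1.06, Epgn between 0.66 and 1.57, Nrg1 between 1.19 and 2.54 and Tgfa between -0.12 and 0.08, with Areg and Nrg1 at their lowest without CMV-siRE library 3, Btc without CMV-siRE library 4, Epgn without CMV-siRE library 2 and Tgfa above 0 without CMV-GE11-siRE library 4. With the deposited scaling, the 5 ligands that rose with CMV-GE11-siRE against the control are not shown to differ between the siRNA circuits. With equal column totals Tgfa (1.55), Areg (2.36), Hbegf (2.16), Btc (2.34), Epgn (2.68) and Nrg1 (3.18) were called higher with CMV-GE11-siRE than with CMV-siRE. Column totals, in units of 1000000, were 5.87 to 9.48 in CMV-GE11-siRE tumours and 12.2 to 43.8 in CMV-siRE tumours. That scaling therefore raises all genes together, Tgfa from -0.05 to 1.55, so these calls are not read as particular to the ligands. Hbegf, at 0.56 with the deposited scaling, was also called at 1.14 with the total without mitochondrial genes. That scaling, too, moves all genes of a library together, so the call is not read as particular to Hbegf. The share of all genes called between the siRNA circuits under either scaling is not given here.

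Scaling moved the tumour differences together with those of all genes. When libraries were set to equal column totals, the median over all genes was 2.12, with 11799 genes higher and 58 lower, and all 8 ligands passed. Egf entered that test only because the scaling brought it past the filter in the CMV-GE11-siRE tumours, where it was high. Its call therefore follows in part from the filter. Relative to that median Areg was at 2.86, Ereg at 3.22, Btc at 1.95, Hbegf at 0.99 and Tgfa at 0.73. Those 5 stood 2.85, 3.29, 2.09, 0.98 and 0.73 above the median with the deposited scaling. Without the mitochondrial genes in the total the median was 0.81, with 6132 genes higher and 607 lower, and the same 5 ligands passed. The mitochondrial share did not overlap between CMV-GE11-siRE and CMV-scrR tumours, and with it as a covariate no gene of 14044 was called and no ligand passed (differences of 2.56 for Areg, 5.62 for Ereg, 2.55 for Btc, 0.96 for Hbegf and 1.23 for Tgfa, limma adjusted p = 0.990 for each). The circuit and the mitochondrial share cannot be told apart here. Alveolar type 2 markers also moved with the circuit, with 6 of 6 higher in CMV-GE11-siRE than in CMV-scrR tumours and summed levels of 47776 to 93340 CPM with CMV-GE11-siRE, 3343 to 56536 with CMV-siRE and 1877 to 3519 with CMV-scrR. Among all genes of this comparison 22.1% were called higher and 41.9% in either direction. Of the other marker lists tested, alveolar type 1 had 2 higher and 1 lower of 5, T cell 1 higher of 4, hepatocyte 2 lower of 3, distal nephron and proximal tubule 1 higher of 1 tested each, and macrophage, endothelium and mesothelium 1 lower of 5, 4 and 3. No marker was called in the club, ciliated, neutrophil, mast cell and basophil, B cell, megakaryocyte, mesenchyme, erythroid and Schwann cell lists. The part of these cells in the ligand differences was not tested.

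**Figure D4:**
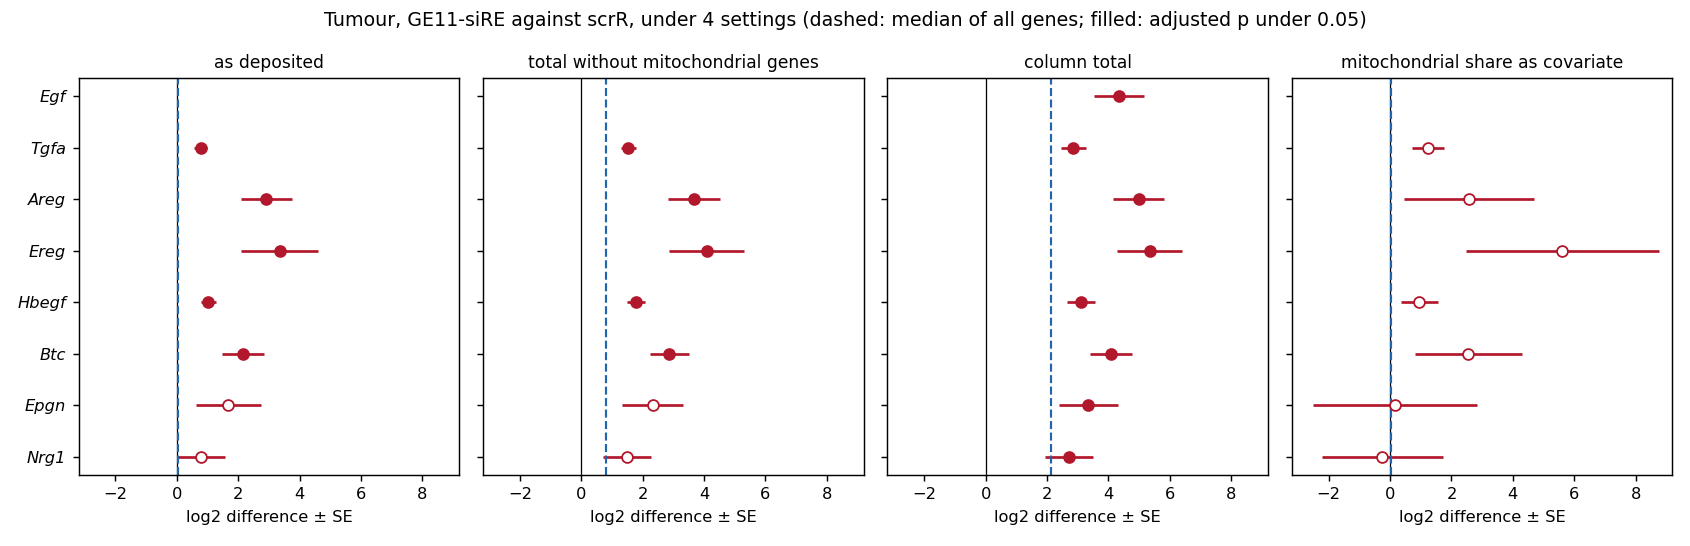
Log2 difference of each ligand between CMV-GE11-siRE and CMV-scrR tumours, with its standard error, under the deposited scaling, scaling by the total without mitochondrial genes, scaling by the column total and the mitochondrial share as a covariate. The dashed line is the median of all genes, at 0.05, 0.81, 2.12 and 0.04, and filled points passed an adjusted p of 0.05.

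The receptors and the genes of ligand release were described from lists set out with the members. The release list holds, besides proteases, Rhbdf1, Rhbdf2, Frmd8 and the metalloprotease inhibitor Timp3, so its counts are not of releasing enzymes alone. Of 4 receptor genes 3 were tested in tumour, where 41.9% of all genes were called, and Erbb2 (2.87 ± 0.46, limma adjusted p = 0.000765) and Erbb3 (2.56 ± 0.43, adjusted p = 0.000875) were higher with CMV-GE11-siRE than with CMV-scrR. Erbb2 averaged 627 ± 52.9 in CMV-GE11-siRE tumours, 405 ± 249.5 in CMV-siRE tumours and 89.8 ± 33.5 in CMV-scrR tumours (SD, n = 4 each). Erbb3 averaged 864 ± 226 in CMV-GE11-siRE tumours, 383 ± 202 in CMV-siRE tumours and 160.0 ± 85.1 in CMV-scrR tumours. Mouse Egfr averaged 42.5 ± 14.9 in CMV-GE11-siRE tumours, 46.1 ± 47.0 in CMV-siRE tumours and 31.004 ± 13.9 in CMV-scrR tumours and was not called, and Erbb4 was at 3.88 or less in every tumour library and not tested. Of 12 genes of ligand release 8 were higher and none lower, with a median of 1.70, where 22.1% of all genes were called higher and the median of all genes was 0.05. The largest were Rhbdl2, a rhomboid protease (3.90 ± 1.03), Rhbdf2, an inactive rhomboid that carries ADAM17 to the cell surface (2.57 ± 0.42), and Adam12 (2.37 ± 0.65), and both main sheddases passed as well, Adam17 at 1.45 ± 0.26 and Adam10 at 0.85 ± 0.27. Adam17 and Adam10 were named for their role, outside the rule for naming genes. Of 6 genes of ligand processing 4 were higher, beside the same 22.1% of all genes, led by the proprotein convertases Pcsk6 (2.42 ± 0.49) and Pcsk7 (2.31 ± 0.39) and by Cd9 (0.94 ± 0.27).

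Downstream of the receptors 5 of 14 targets and feedback genes, 3 of 6 adaptors and 3 of 8 receptor inhibitors were called, shares near the 41.9% of all genes called in this comparison. Of the 14 tested targets and feedback genes 5 were higher and none lower, led by Etv4, a transcription factor induced by ERK signalling (2.93 ± 0.59), Phlda1 (1.98 ± 0.35) and Spry2, a feedback inhibitor (1.42 ± 0.35). Among 6 adaptors Shc1 was higher (0.76 ± 0.24), while Ptpn11 (-1.82 ± 0.26) and Grb2 (-0.91 ± 0.23) were lower. Among 8 receptor inhibitors Lrig2 (1.51 ± 0.55) and Errfi1 (1.09 ± 0.38) were higher and Socs4 (-0.68 ± 0.23) was lower. These 3 were lower relative to the median of all genes, since with equal column totals Ptpn11 was at 0.27, Grb2 at 1.18 and Socs4 at 1.41 where that median stood at 2.12, and without mitochondrial genes in the total Grb2 was at -0.15 and Socs4 at 0.08. The single neuregulin tested besides Nrg1 did not pass. No gene of these 7 lists passed in the other tumour comparisons, which called 36 and 3 of all genes.

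Outside tumour, none of 84 tests of a ligand was called by limma, and 8 had an unadjusted p under 0.05. Among all genes the share at that level lay between 2.81% (thymus, CMV-GE11-siRE against CMV-siRE) and 24.5% (spleen, CMV-GE11-siRE against CMV-scrR). It was 20.7% and 20% in liver for CMV-GE11-siRE and CMV-siRE against CMV-scrR, so the ligand count does not stand out. The tests covered 7 ligands in lung (not Epgn), 6 in liver (not Areg or Epgn) and 5 each in kidney, spleen and thymus (not Areg, Ereg or Epgn). In lung the 3 comparisons, CMV-GE11-siRE against CMV-scrR, CMV-siRE against CMV-scrR and CMV-GE11-siRE against CMV-siRE, called 0% (1277 genes at an unadjusted p under 0.05), 1.41% and 0.0619% of all genes and none of 7 ligands. In liver they called 4.23%, 4.04% and 0.0069% of all genes and none of 6 ligands. In spleen they called 5.76%, 4.61% and 0.112% of all genes and none of 5 ligands. In kidney they called 0% of all genes each (1218, 1486 and 599 genes at an unadjusted p under 0.05), and in thymus 0%, 0.00609% and 0% (1550, 927 and 461), with none of 5 ligands in either tissue.

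**Figure D5:**
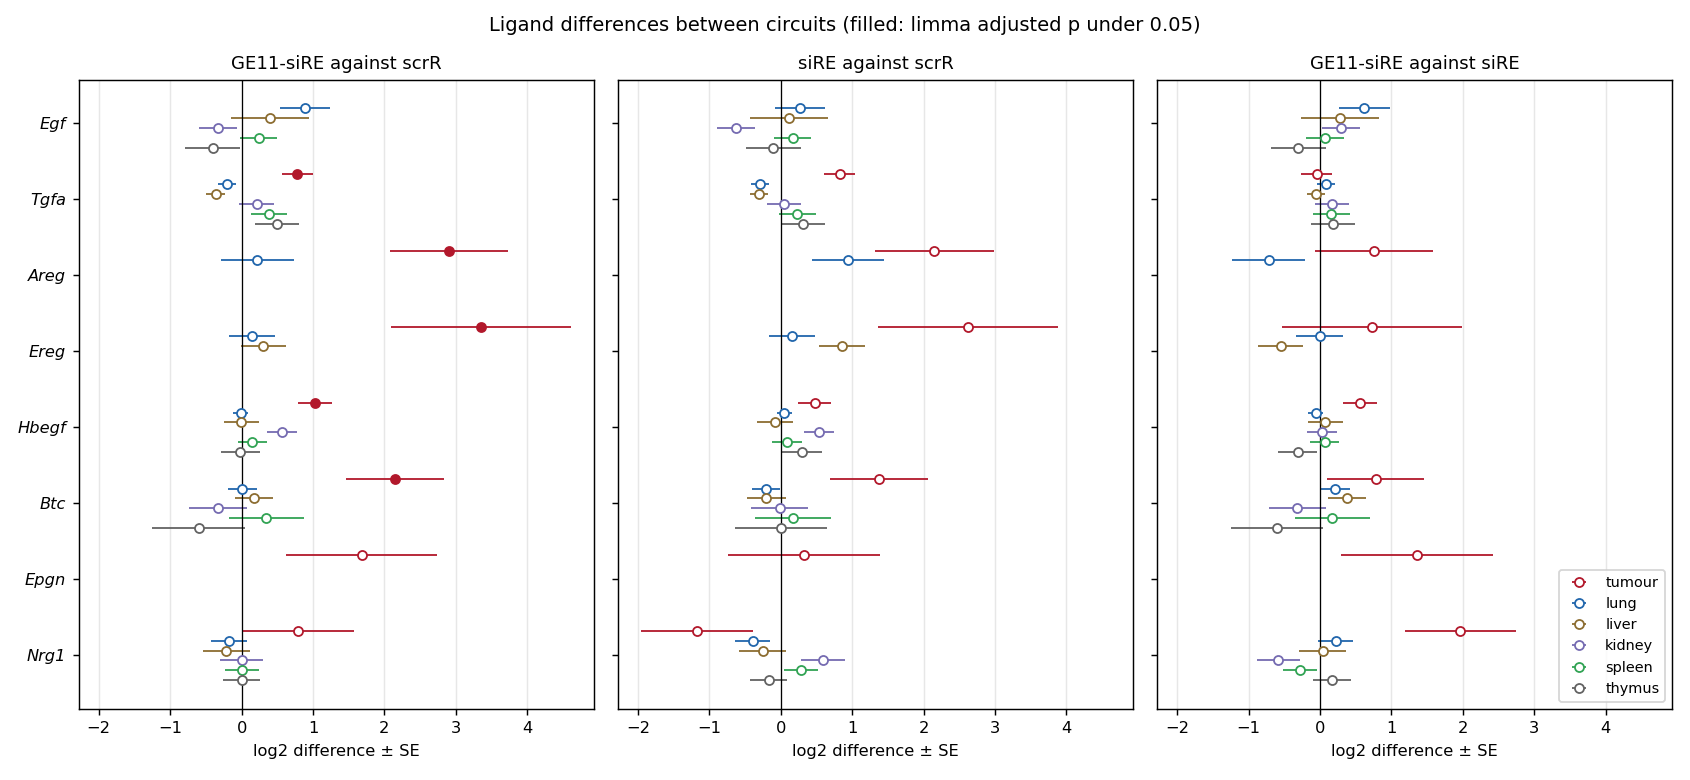
Log2 difference of each tested ligand in each tissue, with its standard error, for the 3 comparisons of circuits. The 5 filled points, all in tumour with CMV-GE11-siRE against CMV-scrR, passed an adjusted p of 0.05, and the comparisons share libraries.

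In kidney, Egf had 48886, 34451, 49684 and 31015 in CMV-GE11-siRE kidneys, 26125, 41207, 49971 and 21382 in CMV-siRE kidneys and 48999, 53395, 50511 and 49251 in CMV-scrR kidneys. The CMV-scrR kidneys were close together, while both siRNA circuits held libraries well below them. The difference was -0.33 ± 0.27 with CMV-GE11-siRE (limma adjusted p = 0.562) and -0.63 ± 0.27 with CMV-siRE (adjusted p = 0.498), so neither passed. Without CMV-GE11-siRE library 4, the kidney that stood apart in mitochondrial share, the first was -0.21. In the same libraries Slc12a3 had 62352, 45643, 63135 and 36618 with CMV-GE11-siRE, 38873, 49274, 58086 and 36095 with CMV-siRE and 71740, 69854, 81010 and 74747 with CMV-scrR, and its 3 lowest values were in the 3 libraries with the lowest Egf. The other distal nephron markers did not all follow Slc12a3. Of the 6, Slc12a3, Calb1 and Trpm6 were lower in every kidney of both siRNA circuits than in any CMV-scrR kidney, Pvalb and Slc12a1 overlapped, and Umod averaged 73569.5 ± 30111 with CMV-GE11-siRE, 71454 ± 11557 with CMV-siRE and 51003 ± 7469 with CMV-scrR (SD, n = 4 each). None of the 6 passed the test, and 0% of all kidney genes were called in either comparison with CMV-scrR. How many of all genes separated the circuits without overlap was not counted in any tissue. The separations given here and below therefore only describe the genes named. Their summed level overlapped between circuits, at 7614 to 8767 CPM with CMV-GE11-siRE, 7004 to 9199 with CMV-siRE and 8219 to 9479 with CMV-scrR, and CMV-GE11-siRE library 4, among the lowest in Egf, was at 8458. The 2 CMV-siRE kidneys with the least Egf also had the least proximal tubule marker, 5687 and 4699 summed CPM, against 7993 to 12842 in the other 10 kidneys. The part of nephron makeup in the Egf values was not tested.

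Hbegf in kidney had 183, 198, 176 and 292 with CMV-GE11-siRE, 219, 188, 166 and 258 with CMV-siRE and 151, 170.4, 116 and 129.8 with CMV-scrR. All CMV-GE11-siRE kidneys lay above all CMV-scrR kidneys, by 0.56 ± 0.21, which did not pass (limma adjusted p = 0.520) and was 0.40 without CMV-GE11-siRE library 4. The CMV-siRE difference was 0.54 ± 0.21 (adjusted p = 0.474), with 3 of 4 libraries above all CMV-scrR kidneys. Nrg1 had 304, 154, 297 and 339.7 with CMV-GE11-siRE, 441, 346, 238 and 666 with CMV-siRE and 277, 238, 251 and 282 with CMV-scrR. Its difference for CMV-siRE, 0.59 ± 0.30, did not pass (adjusted p = 0.536) and was 0.34 without CMV-siRE library 4, and its 2 highest values were in the CMV-siRE kidneys with the least Egf. Btc was at 36.3 in CMV-GE11-siRE library 4 and between 99.7 and 170.1 in the other 11, and its difference of -0.33 ± 0.40 was 0.17 without that library.

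In liver, Tgfa had 341, 369.7, 407 and 424 with CMV-GE11-siRE, 353.99, 419, 398 and 431 with CMV-siRE and 578, 383, 546 and 491 with CMV-scrR. Of the 4 CMV-scrR livers 3 lay above every liver of the siRNA circuits, and the lowest lay within them. The differences of -0.36 ± 0.13 with CMV-GE11-siRE and -0.31 ± 0.13 with CMV-siRE did not pass (limma adjusted p = 0.137 and 0.208). Without CMV-scrR library 2, the low one, the CMV-GE11-siRE difference was -0.48 and was called (adjusted p = 0.0365). Ereg had 20.4, 14.6, 12.6 and 18.3 with CMV-GE11-siRE, 28.2, 15.4, 37.1 and 21.3 with CMV-siRE and 15.0, 13.2, 12.1 and 11.7 with CMV-scrR. All CMV-siRE livers lay above all CMV-scrR livers, by 0.86 ± 0.32, without passing (adjusted p = 0.147).

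In lung, Areg spread widely, with 73.7, 46.0, 39.4 and 210.4 with CMV-GE11-siRE, 119, 96.9, 74.8 and 248 with CMV-siRE and 40.1, 90.9, 42.2 and 98.2 with CMV-scrR. The groups overlapped, and the differences of 0.22 ± 0.51 with CMV-GE11-siRE and 0.94 ± 0.51 with CMV-siRE did not pass (limma adjusted p = 0.956 and 0.360). Without CMV-GE11-siRE library 4 the first was -0.28, and without CMV-siRE library 4 the other was 0.60. Egf had 75.2, 59.3, 51.3 and 27.4 with CMV-GE11-siRE, 36.7, 23.2, 51.6 and 24.5 with CMV-siRE and 32.8, 18.7, 35.3 and 23.3 with CMV-scrR. The difference of 0.89 ± 0.35 with CMV-GE11-siRE did not pass (adjusted p = 0.537), with 3 of 4 libraries above all CMV-scrR lungs. Tgfa had 431, 450.4, 457 and 575 with CMV-GE11-siRE, 539.7, 389, 393 and 484 with CMV-siRE and 530.4, 567, 554 and 548 with CMV-scrR, and the -0.30 ± 0.13 of CMV-siRE did not pass (adjusted p = 0.239). Of the 8 lungs of the siRNA circuits 6 lay below all CMV-scrR lungs. Hbegf, the leading lung ligand, differed by -0.01 ± 0.10 with CMV-GE11-siRE and 0.05 ± 0.10 with CMV-siRE.

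In spleen the log2 differences of the 5 tested ligands lay between 0.01 (Nrg1) and 0.38 (Tgfa) with CMV-GE11-siRE and between 0.09 (Hbegf) and 0.29 (Nrg1) with CMV-siRE, and all groups overlapped. Without CMV-GE11-siRE library 1 that of Tgfa was 0.21. Hbegf, the leading spleen ligand, had 71.3, 66.0, 85.2 and 93.4 with CMV-GE11-siRE, 70.04, 90.9, 60.7 and 81.2 with CMV-siRE and 67.5, 67.4, 57.9 and 92.996 with CMV-scrR. All 3 ranges overlapped. In thymus they lay between -0.60 (Btc) and 0.49 (Tgfa) with CMV-GE11-siRE and between -0.17 (Nrg1) and 0.31 (Tgfa) with CMV-siRE, again with overlap. Without CMV-GE11-siRE library 4, which stood apart in mitochondrial share, the Btc difference there was 0.06. Tgfa in thymus had 59.6, 37.9, 36.6 and 48.1 with CMV-GE11-siRE, 34.3, 49.4, 35.4 and 39.05 with CMV-siRE and 25.3, 56.3, 33.1 and 20.5 with CMV-scrR, the widest spread being in the control. Its difference with CMV-GE11-siRE was 0.30 without CMV-scrR library 4 and 0.77 without CMV-scrR library 2.

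In spleen, genes of the pathway lists were called while no ligand was, among 5.76% of all genes called with CMV-GE11-siRE and 4.61% with CMV-siRE. Of 14 tested targets and feedback genes 3 were lower with CMV-GE11-siRE, beside 3.47% of all genes called lower, among them Dusp5, an ERK phosphatase (-1.10 ± 0.13, limma adjusted p = 0.00203), and Egr1, an immediate early transcription factor (-0.75 ± 0.17, adjusted p = 0.0258). With CMV-siRE 3 were lower, beside 2.88% of all genes, among them Dusp5 (-0.84 ± 0.13) and Phlda1 (-0.82 ± 0.19). Adam8, a metalloprotease of leukocytes, was lower with both, by -0.65 ± 0.13 with CMV-GE11-siRE and -1.01 ± 0.13 with CMV-siRE, Furin was lower with CMV-siRE (-0.50 ± 0.13) and Lrig2 higher with CMV-GE11-siRE (0.48 ± 0.12). These comparisons share the CMV-scrR spleens. Elsewhere the calls in these lists were mouse Egfr in liver, lower with CMV-GE11-siRE (-0.37 ± 0.08, adjusted p = 0.028), Etv5 and Spred1 in liver, higher with CMV-siRE (0.65 ± 0.16 and 0.58 ± 0.11), and Rhbdf1 and Spred2 in lung, lower with CMV-siRE (-0.58 ± 0.12 and -0.60 ± 0.13). With equal column totals Furin in spleen and Rhbdf1 in lung kept their direction and were no longer called (adjusted p = 0.0799 and 0.0520), where the median of all genes stood at 0.10 in that spleen comparison and 0.04 in the lung one.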

How the data were processed

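Total RNA was extracted with TRIzol and libraries were made with the TruSeq RNA kit, per the labels' protocols. The deposited values are signal, fractional values taken as scaled by size factors, by tissue. DESeq2 is named in the submitters' processing notes without a version or role. No aligner, counting tool or build is named there. Of 36047 identifiers, 35968 matched GENCODE M21, which gave symbols, positions and exon lengths. Between 50.3% and 72.6% of a library's values of up to 20 times its most frequent value under 5 were whole multiples of it (within 0.1). The values are thus not shown to be plain counts divided by a single factor, and reads were not recovered.

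Limma 3.58.1 in R 4.3.3 (limma-trend) was fitted to log2(signal + 1), which understates changes of low genes, for genes reaching 10 in 4 or more of a tissue's 12 libraries, with 1 mean per circuit and Benjamini-Hochberg adjustment over all genes of a comparison at 0.05. It was tested on simulated data. CPM were computed from the deposited signal. Tissues, scaled separately, were described without a test. Alternatives were another pseudocount, filter, scaling, covariate, block, 8-library fit and each library left out. Members, lists and tests were chosen with earlier results of these data known. Named pathway genes were the 3 largest calls each way per list in tumour and 2 elsewhere.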

Additional observations from a re-analysis of the deposited data

Results flagged for a closer look

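Of 105 groups of 4 libraries of a tested ligand, 11 held a library far from the other 3 (by Dixon's test of the gap over the range, on the log2 scale), where chance gives about 1 in 20. In CMV-scrR tumours these were library 2 for Areg (8.63, against 136 to 214 in the others) and for Ereg (0, against 145 to 195), and library 3 for Nrg1 (3.97, against 12.9 to 15.9). In CMV-scrR lungs, Btc was at 97.0 in library 2 and Hbegf at 1167 in library 4. In kidney, Btc was at 36.3 in CMV-GE11-siRE library 4 and at 99.7 in CMV-scrR library 3, and Tgfa at 60.6 in CMV-siRE library 3. In thymus, CMV-siRE library 3 was low for Btc (6.98) and Nrg1 (27.8), and CMV-scrR library 2 was low for Hbegf (14.1).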

How the results depend on the processing

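The count of 5 ligands called in tumour with CMV-GE11-siRE against CMV-scrR was 8 with scaling by the column total, 0 once the mitochondrial share was a covariate, and 3 to 5 with each library left out, the lower count without CMV-GE11-siRE library 1, 2 or 3. The 8 include Egf, which passed the filter under that scaling only through the CMV-GE11-siRE tumours. Against CMV-siRE the count of 0 was 7 with scaling by the column total, Egf again among them, and 1 with the total without mitochondrial genes (Hbegf, 1.14). Tgfa, -0.05, was 1.55 with the column total. Either scaling moves all genes of a library together, so these calls are not read as particular to the ligands. In liver with CMV-GE11-siRE the count of 0 lay between 0 and 1. The cause was not tested. Ereg in tumour lost its call with a pseudocount of 0.1 (adjusted p = 0.0794 by limma), without the filter (0.0792) and in a fit of the 8 libraries (0.0752). Of 1567 values of single ligands under alternatives, 1421 kept both direction and call status, whatever the size of the change. Direction changed without a call in either fit for 119, while 17 lost their call, 9 gained one and 1 changed direction with a call. Within a tissue, libraries of the same number in different circuits did not deviate together (correlations of -0.28 to 0.27 over 72 pairs, 13 best with their own number), so the main fit did not pair them. These correlations do not compare tissues. Whether libraries of one number in different tissues share an animal was not tested, and CMV-GE11-siRE library 4 stood apart in mitochondrial share in both kidney and thymus. With the replicate block the tumour count was again 5 and no other count of called ligands changed, while calls over all genes were 5718 against 5890 for CMV-GE11-siRE and 190 against 36 for CMV-siRE, each over CMV-scrR in tumour. Depth behind the values is unknown, so low ligands such as Epgn carry no counting interval.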
